A study of Mus musculus with 4 samples.

Results

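Histones are the proteins around which DNA is wound, and their genes were examined here in mammary epithelial cells of MMTV-Cre and wild-type mice. Members were the genes whose single symbol in the platform annotation began with a histone gene prefix (H1f, H2af, H2ac, H2bc, H3c or H4c, or the older forms Hist1h to Hist4h and H3f3), and a gene with several probe sets was represented by the brightest. The rule found 30 genes among the 22180 genes with a single symbol. Of these, 23 were classed by symbol as replication-dependent histone genes and 5 were genes of germ-line histones. A further 1 was the linker histone variant H1f10 and 1 was the transcribed pseudogene H2af-ps2. The annotation carries current symbols, so the well-known variants once named H2af (H2ax, H2az1, H2az2, H2aj, Macroh2a1 and Macroh2a2) were not found by the rule. They were added through the older symbols of the RefSeq gene table, and with H1f10 they made a comparison group of 7 variant genes. The older symbols also found the replication-dependent H2aw and H4f16, the pseudogenes H2bu1-ps and Macroh2a3 and 3 germ-line genes. These entered no class median.

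The tested samples were 2 arrays of mammary epithelial cells from Cre-expressing mice (MMTV-Cre+) and 2 arrays from their wild-type littermates, all congenic on FVB/NJ and 4 weeks old. The MMTV promoter comes from a retrovirus of the mouse mammary gland and is active in mammary epithelium and in some other tissues, and Cre is a recombinase that cuts and rejoins DNA at loxP sites. No floxed allele is named in the labels. Cells were prepared from inguinal glands, with the lymph node left out per the labels' protocols, and how many mice made up a sample is not given in the sources used here. In bulk samples, fewer cells of a type and less RNA per cell cannot be told apart.

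Replication-dependent histone genes lie in clusters, have no introns and are transcribed mainly in S phase, when new DNA needs new nucleosomes. Their mRNAs end in a stem-loop that is bound by the protein Slbp, in place of a poly(A) tail. Variant histones come from scattered genes, are made through the whole cell cycle from polyadenylated mRNAs, and are placed by their own chaperones. At the age studied the mammary ducts grow into the fat pad from dividing end buds, so a gland of this stage holds cells in S phase.

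The promoters of the 4 replication-dependent members that passed the filter on dim genes and whose groups did not overlap are shown, as the 150 bases before the transcription start from the RefSeq promoter table (GRCm38.p6). They are H1f5 (chr13:21780626-21780775, minus strand), H2ac15 (chr13:21753913-21754062, minus strand), H2ac20 (chr3:96220881-96221030, minus strand) and H2bc3 (chr13:23746584-23746733, plus strand). Capitals mark 4 motifs searched on both strands: CCAAT, which reads as ATTGG where it lies on the opposite strand, the TATA box TATAAA, the H1 box AAACACA and the octamer ATTTGCAT. No marked motifs overlap.
H1f5: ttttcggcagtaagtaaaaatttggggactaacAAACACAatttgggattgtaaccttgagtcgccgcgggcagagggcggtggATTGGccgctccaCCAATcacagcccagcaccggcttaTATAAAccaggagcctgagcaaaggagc
H2ac15: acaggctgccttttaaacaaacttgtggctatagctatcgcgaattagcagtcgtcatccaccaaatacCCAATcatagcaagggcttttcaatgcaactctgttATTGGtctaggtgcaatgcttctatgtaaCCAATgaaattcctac
H2ac20: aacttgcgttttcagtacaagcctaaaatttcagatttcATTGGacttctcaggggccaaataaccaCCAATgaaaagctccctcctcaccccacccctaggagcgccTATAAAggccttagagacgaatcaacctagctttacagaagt
H2bc3: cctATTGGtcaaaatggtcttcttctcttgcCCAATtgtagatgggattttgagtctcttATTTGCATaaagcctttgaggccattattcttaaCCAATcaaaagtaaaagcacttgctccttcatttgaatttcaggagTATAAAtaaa

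Of the 23 replication-dependent members, 21 had a promoter in the table. The octamer, the site of the factor Oct-1 in H2B promoters, was present in 4 of the 6 H2B promoters and in 0 of the 4 H1, 5 H2A and 6 H4 promoters, against 0.998% of all 32851 promoters. The H1 box was present in 3 of 4 H1 promoters, 1 of 6 H2B promoters, 0 of the 5 H2A and 6 H4 promoters, and in 3.53% of all promoters. CCAAT was present in 16 of 21 replication-dependent promoters, with 1 of 6 H4 promoters among them, in 3 of the 6 variant promoters found, and in 24.5% of all promoters. TATAAA was present in 9 of the 21, in 0 of 6 variant promoters and in 7.57% of all promoters. A match is a description of the letters and not a measured site.

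Expression is given as RMA values on the log2 scale, as deposited, and a gene entered the test where its mean over the 4 arrays reached 2.84, the median over all probe sets. By limma 0 of the 11668 genes tested passed at an adjusted p of 0.05 (0%), and 504 had an unadjusted p under 0.05. Among the histone genes 13 of the 30 members were tested and the remaining 17 were dim. No member passed, with adjusted p from 0.964 to 0.998. The luminal markers Krt8, Krt18, Krt19, Epcam, Cdh1 and Elf5 were all above the limit for dim genes. All 6 fibroblast markers, all 4 endothelial markers and 4 of 5 macrophage markers also reached it, so the limit does not measure purity. Endothelial list means were 5.52 and 5.82 in MMTV-Cre arrays and 5.47 and 5.89 in wild-type arrays. Those of macrophages were 4.11 and 4.54 in MMTV-Cre arrays and 4.34 and 4.48 in wild-type arrays. Wild-type replicate 1 stood apart in lymphocyte genes: of 10 T and NK cell markers 9 were tested, and the mean of the 9 lay between 3.18 and 3.29 in MMTV-Cre arrays and at 3.35 and 5.78 in wild-type arrays, the higher in replicate 1. Of 6 B cell markers 5 had a value, 3 of them above the limit, with means of 2.60 and 2.69 in MMTV-Cre arrays and 2.59 and 3.94 in wild-type arrays. Mast cell markers were lower in both MMTV-Cre arrays, with list means of 2.77 and 3.06 against 3.48 and 3.54 in wild-type arrays. Of these 4 markers 3 were tested, and all 3 were lower without overlap (16.5% of genes tested). Adipocyte markers had list means of 2.61 and 3.05 in MMTV-Cre arrays against 3.13 and 3.16 in wild-type arrays. Of 6 fibroblast markers 4 (Col1a1, Col1a2, Col3a1 and Dpt) were higher in both MMTV-Cre arrays without overlap (16.7% of genes tested). Dcn and Pdgfra overlapped, with differences of 0.11 and −0.12, and the list's median difference was 0.23. Of 6 basal markers 5 were tested, and of these only Acta2 was separate, with a difference of 0.40. Mylk and Myh11 differed by 0.21 and 0.19, and Krt14 and Trp63 by −0.33 and −0.24. The basal list means overlapped, at 5.41 and 5.51 in MMTV-Cre arrays and 5.41 and 5.44 in wild-type arrays. The part of these cells in the histone values was not tested, and values without wild-type replicate 1 are given for the tested histone genes whose groups were separate and for the histone and S phase lists.

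Linker histones of the H1 family bind the DNA between nucleosomes. H1f5 (Hist1h1b) was the replication-dependent member with the largest difference. It stood at 6.60 and 6.97 in MMTV-Cre arrays and at 5.83 and 6.31 in wild-type arrays. Both MMTV-Cre values lay above both wild-type values, and wild-type replicate 1 was the lowest array. The means were 6.79 ± 0.26 and 6.07 ± 0.34 (SD, n = 2 each), a log2 difference of 0.72 (SE 0.22, 95% interval 0.16 to 1.28, limma adjusted p = 0.964). The unadjusted p was 0.0215. The difference was 0.48 without wild-type replicate 1 and 0.96 without wild-type replicate 2.

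The remaining H1 genes did not share that difference. H1f2 (Hist1h1c), a somatic linker histone, stood at 5.75 and 5.76 in MMTV-Cre arrays and at 5.64 and 5.90 in wild-type arrays. The MMTV-Cre values lay between the wild-type values, and the log2 difference was −0.01 (−0.35 to 0.33). H1f3 (Hist1h1d) differed by −0.01 (−0.65 to 0.64), with 3.66 and 4.02 in MMTV-Cre arrays and 3.53 and 4.17 in wild-type arrays. H1f1 (Hist1h1a) was dim, at 2.96 and 2.81 in MMTV-Cre arrays and at 2.65 and 2.84 in wild-type arrays. The groups of these 3 genes overlapped.

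**Figure D1:**
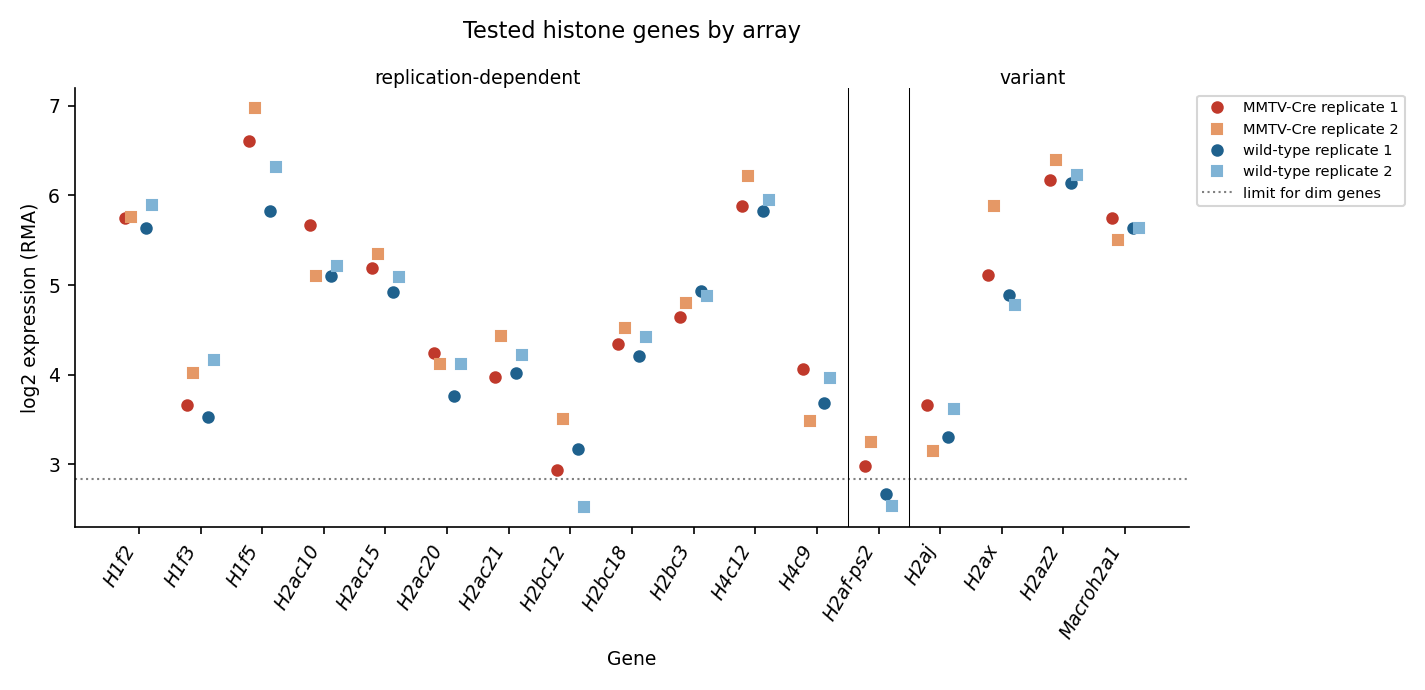
Points give the log2 expression (y axis, RMA) in each array of the tested members of the rule and the tested variants (x axis). MMTV-Cre lies left of wild-type for each gene, and the dotted line is the limit of 2.84 for dim genes. H1f5 and H2ax show both MMTV-Cre points above both wild-type points, while those of H1f2 lie between the wild-type points.

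H2A proteins pair with H2B in the nucleosome core. All 5 replication-dependent H2A members had a difference above 0, where 49.5% of all genes did, and the groups of 3 did not overlap, each time with MMTV-Cre higher, where 16.6% of all genes were higher without overlap. Of the 5, 4 were tested and 0 passed. Without wild-type replicate 1, or without either MMTV-Cre array, 4 of the 5 had a difference above 0, and without wild-type replicate 2 all 5. H2ac15 (Hist1h2ak) stood at 5.19 and 5.35 in MMTV-Cre arrays and at 4.92 and 5.09 in wild-type arrays. Its groups were separate, and the log2 difference was 0.27 (SE 0.13, −0.06 to 0.59, limma adjusted p = 0.964), and 0.19 without wild-type replicate 1.

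H2ac20 (Hist2h2ac), of the smaller cluster on chromosome 3, stood at 4.24 and 4.12 in MMTV-Cre arrays and at 3.77 and 4.12 in wild-type arrays. The groups were separate by a small margin, since wild-type replicate 2 reached almost the level of MMTV-Cre replicate 2. The log2 difference of 0.24 (−0.16 to 0.64) was 0.07 without wild-type replicate 1. H2ac10 (Hist1h2af) was high in MMTV-Cre replicate 1 alone, with 5.67 and 5.10 in MMTV-Cre arrays and 5.10 and 5.21 in wild-type arrays. Its difference of 0.23 (−0.31 to 0.77) turned to −0.055 without MMTV-Cre replicate 1. H2ac21 (Hist2h2ab) differed by 0.08 (−0.40 to 0.57), and the dim H2ac12 (Hist1h2ah) stood at 1.44 and 1.39 in MMTV-Cre arrays and at 1.21 and 1.16 in wild-type arrays.

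H2B members had differences on both sides of 0. Of 7 genes, 4 had a difference above 0 and 3 were tested, and the groups of 3 genes did not overlap, each with MMTV-Cre lower, where 16.3% of all genes were lower without overlap. H2bc3 (Hist1h2bb) stood at 4.65 and 4.80 in MMTV-Cre arrays and at 4.93 and 4.88 in wild-type arrays. Among tested replication-dependent members it alone had both MMTV-Cre values below the wild-type values, and its log2 difference was −0.18 (SE 0.12, −0.48 to 0.12, limma adjusted p = 0.964), and −0.15 without wild-type replicate 1. H2bc18 (Hist2h2bb) differed by 0.12 (−0.23 to 0.47), with 4.34 and 4.53 in MMTV-Cre arrays and 4.21 and 4.42 in wild-type arrays, which overlapped. Its difference was 0.013 without wild-type replicate 1 and 0.23 without wild-type replicate 2.

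H2bc12 (Hist1h2bk) lay near the limit for dim genes and varied widely within groups, at 2.94 and 3.51 in MMTV-Cre arrays and at 3.17 and 2.52 in wild-type arrays. Its difference was 0.38 (−0.36 to 1.12), and it ran from 0.059 without wild-type replicate 2 to 0.70 without wild-type replicate 1. H2bc12 starts 178 bases from the dim H2ac12 and is transcribed away from it, an arrangement common among H2A and H2B genes. The dim H2bc21 (Hist2h2be), known in mouse for expression outside S phase in olfactory neurons, stood at 2.22 and 2.26 in MMTV-Cre arrays and at 2.76 and 2.58 in wild-type arrays. The groups were separate with a difference of −0.43, at levels too dim for the test. Classes were assigned by symbol, so H2bc21 counts among the 23 replication-dependent members and in their median despite that known expression. The dim H2bc14, H2bc22 and H2bc9 had differences of −0.11, 0.21 and 0.01.

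Histone H4 pairs with H3 at the centre of the nucleosome. Of 7 H4 members, 2 had a difference above 0, where 49.5% of all genes did, and 2 were tested. H4c12 (Hist1h4k) stood at 5.89 and 6.21 in MMTV-Cre arrays and at 5.82 and 5.95 in wild-type arrays. The groups overlapped, with a log2 difference of 0.16 (SE 0.15, −0.23 to 0.55), which was 0.00 without MMTV-Cre replicate 2. H4c9 (Hist1h4i) differed by −0.06 (−0.64 to 0.52), with 4.06 and 3.48 in MMTV-Cre arrays and 3.69 and 3.96 in wild-type arrays.

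The remaining H4 members were dim. H4c14 (Hist2h4) stood at 2.57 and 2.26 in MMTV-Cre arrays and at 2.83 and 3.17 in wild-type arrays, separate groups with a difference of −0.59. H4c8 (mean 2.19) had a difference of 0.26 and H4c2 (mean 1.46) of −0.13, both with separate groups. Of the 7 H4 members, 1 was higher in MMTV-Cre without overlap (16.6% of all genes) and 2 were lower (16.3%). H4c1 and H4c17 differed by −0.07 and −0.02 and overlapped. In the fit without the filter on dim genes, H2bc21 and H4c14 had unadjusted p-values of 0.0155 and 0.0174 and an adjusted p of 0.963.

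**Figure D2:**
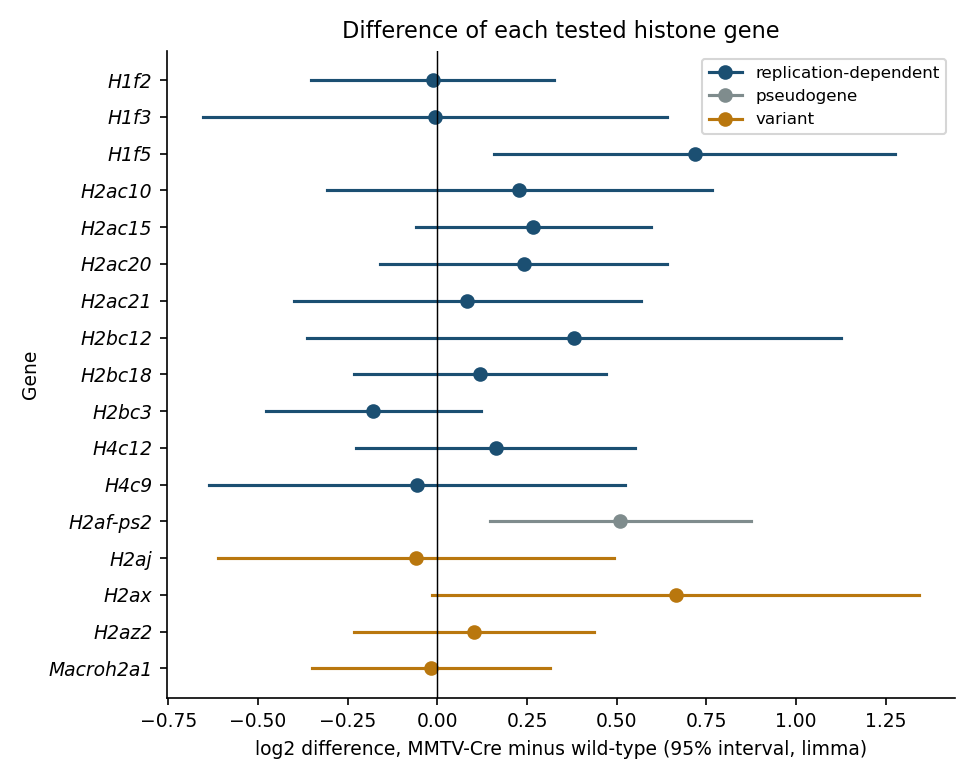
Points give the log2 difference (x axis, MMTV-Cre minus wild-type) of the tested members of the rule and the tested variants (y axis). Lines give the 95% interval from limma, coloured by class. The intervals of H1f5 (0.16 to 1.28) and H2af-ps2 (0.15 to 0.87) lie above 0, and that of every further gene drawn includes 0.

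Replication-dependent genes as a group had a median log2 difference of 0.08 over all 23 members, dim ones and H2bc21 included, beside −0.00 over all genes. Of the 23, 13 had a difference above 0, and the groups did not overlap in 5 members with MMTV-Cre higher (16.6% of all genes) and in 5 with MMTV-Cre lower (16.3%). Of the 12 that were tested, 1 had an unadjusted p under 0.05 with MMTV-Cre higher (2.13% of genes tested) and 0 with MMTV-Cre lower (2.19%). The groups of 3 of the 12 were separate with MMTV-Cre higher (16.7% of genes tested) and of 1 with MMTV-Cre lower (16.5%). The 18 members on chromosome 13 had a median difference of 0.07 and the 5 on chromosome 3 of 0.08.

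The median depended on single arrays. It was −0.01 without wild-type replicate 1, 0.00 without MMTV-Cre replicate 2, 0.12 without wild-type replicate 2 and 0.14 without MMTV-Cre replicate 1. The mean of the members after subtracting each gene's own mean stood at −0.00 and 0.07 in MMTV-Cre arrays and at −0.09 and 0.03 in wild-type arrays. The groups overlapped by this measure, and wild-type replicate 1, in which lymphocyte markers were high, was the lowest.

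Further probe sets list several near-identical histone genes and therefore name no single one. There were 45 of these, 42 with distinct values. Of the 33 distinct sets that list only H2A, H2B, H3 or H4 genes of these clusters, 15 reached the limit for dim genes, and 11 of the 15 had a difference above 0 (47.4% of probe sets at or above the limit). The groups did not overlap in 7 of the 15 with MMTV-Cre higher (15.9%) and in 0 with MMTV-Cre lower (17.7%). None passed by limma over all 41345 probe sets (0%, smallest adjusted p = 0.965), and the smallest unadjusted p was 0.00648. These sets cover the same families with overlapping gene lists, so they are not 15 separate measurements. Over all 33 sets, dim ones included, 19 had a difference above 0 and the median was 0.04.

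H2A sets held the largest of these differences. A set shared by 10 H2A genes stood at 5.24 and 4.86 in MMTV-Cre arrays and at 3.43 and 4.38 in wild-type arrays. The log2 difference was 1.14 (adjusted p = 0.965 by limma). Wild-type replicate 1 was far the lowest there, and without it the difference was 0.67. Another set listing the same 10 genes stood at 4.87 and 4.94 in MMTV-Cre arrays and at 4.32 and 4.34 in wild-type arrays. The difference was 0.57 with little spread within groups (adjusted p = 0.965 by limma), and 0.56 without wild-type replicate 1. Of the 5 bright H2A sets, 4 were higher in both MMTV-Cre arrays without overlap (15.9% of probe sets at or above the limit). Their median difference was 0.18 with all arrays and 0.19 without wild-type replicate 1. Further sets listing the same 10 genes differed less or in the other direction. A bright one differed by 0.17, and the dim ones by 0.01, −0.14, −0.20 and −0.20.

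Histone H3 was measured only by shared sets, since every H3c probe set lists several genes. Of 12 distinct H3 sets 4 reached the limit for dim genes. The brightest stood at 5.69 and 5.79 in MMTV-Cre arrays and at 5.43 and 5.45 in wild-type arrays. Its log2 difference was 0.30 (adjusted p = 0.965 by limma), and of the 4 it alone had separate groups. By comparison, 15.9% of probe sets at or above the limit were higher in MMTV-Cre without overlap. Bright sets listing the same 8 genes differed by 0.14 and 0.06, and the last averaged 2.86 in both groups. The brightest H2B set averaged 9.10 in MMTV-Cre arrays and 9.02 in wild-type arrays, with overlapping groups and a difference of 0.08. The next stood at 8.92 and 9.01 in MMTV-Cre arrays and at 8.71 and 8.81 in wild-type arrays, a difference of 0.21 with separate groups. All 5 shared H4 sets were dim. Without wild-type replicate 1 the median difference of the 15 bright sets was 0.12, against 0.13 with all arrays. With each array left out in turn, this median of differences between group means ranged from 0.11 to 0.18.

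**Figure D3:**
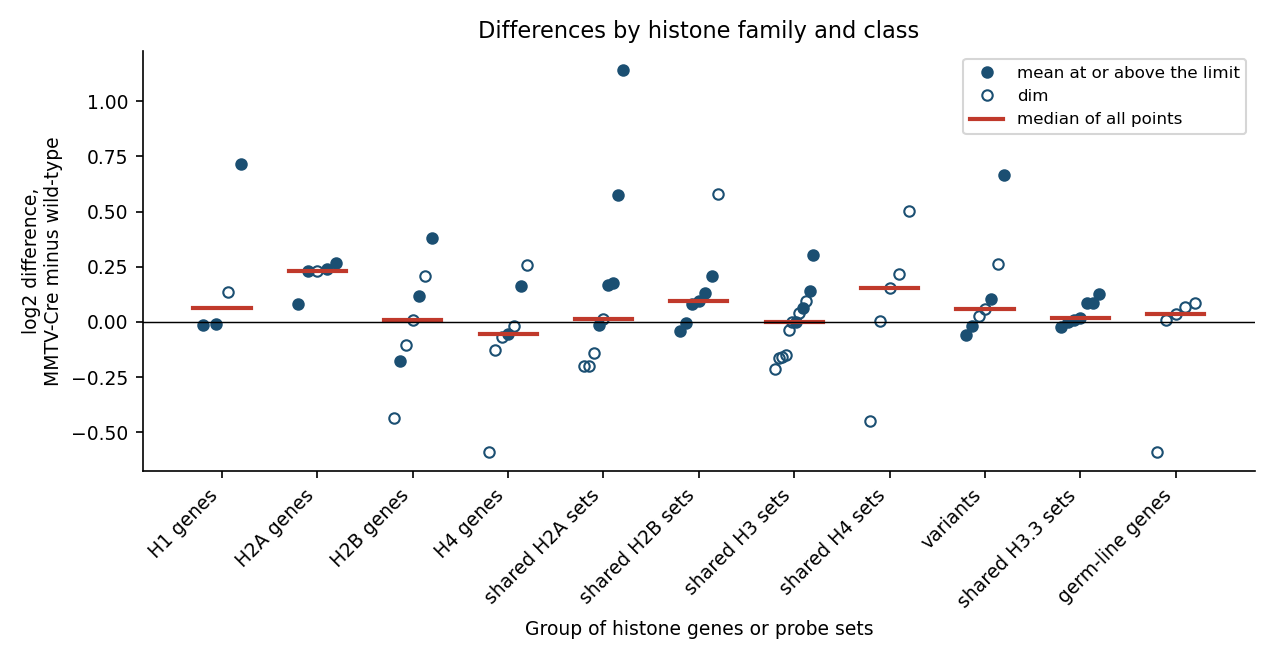
Each point is the log2 difference (y axis, MMTV-Cre minus wild-type) of a histone gene or of a probe set shared by several histone genes, by family or class (x axis), filled where the mean reached 2.84 and open where dim, with the median of all points as a red line. The 5 H2A genes lie above 0, the 7 shared H3.3 sets lie between −0.02 and 0.13, and the H2B and H4 genes lie on both sides of 0.

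Variant histones had a median log2 difference of 0.06 over the 7 genes, with 5 above 0, and 4 were tested with 0 passing. H2ax (older symbol H2afx), whose protein is phosphorylated at DNA double-strand breaks, stood at 5.11 and 5.88 in MMTV-Cre arrays and at 4.88 and 4.77 in wild-type arrays. Both MMTV-Cre values were higher, and MMTV-Cre replicate 2 was far above the rest. The means were 5.49 ± 0.54 and 4.83 ± 0.08 (SD, n = 2 each), a log2 difference of 0.66 (SE 0.27, −0.01 to 1.34, limma adjusted p = 0.964). The difference was 0.28 without MMTV-Cre replicate 2, 1.05 without MMTV-Cre replicate 1 and 0.72 without wild-type replicate 1. H2ax is also known to give a stem-loop mRNA in S phase besides a polyadenylated one.

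The remaining variants differed less between the groups. H2az2, which encodes a form of H2A.Z found at promoters, stood at 6.17 and 6.40 in MMTV-Cre arrays and at 6.13 and 6.23 in wild-type arrays, a difference of 0.10 (−0.23 to 0.44) with overlap. Macroh2a1, which encodes a large H2A variant enriched on the inactive X chromosome, stood at 5.74 and 5.50 in MMTV-Cre arrays and at 5.64 in both wild-type arrays, a difference of −0.02 (−0.35 to 0.31). H2aj, known in human for its accumulation in senescent fibroblasts, differed by −0.06 (−0.61 to 0.49), with 3.66 and 3.15 in MMTV-Cre arrays and 3.31 and 3.62 in wild-type arrays.

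Among the variants 3 were dim. H2az1, the second H2A.Z gene, stood at 2.71 and 2.94 in MMTV-Cre arrays and at 2.46 and 3.13 in wild-type arrays. The linker variant H1f10 stood at 2.26 and 2.54 in MMTV-Cre arrays and at 2.53 and 2.16 in wild-type arrays. Macroh2a2 stood at 2.60 and 1.80 in MMTV-Cre arrays and at 2.04 and 1.83 in wild-type arrays. The groups of all 3 overlapped.

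The replacement histone H3.3, which is placed outside replication, was measured only by 7 distinct probe sets that list H3f3 genes together with predicted genes. All 7 reached the limit for dim genes, and their differences lay between −0.02 and 0.13 with a median of 0.02. The brightest stood at 9.61 and 9.66 in MMTV-Cre arrays and at 9.67 and 9.55 in wild-type arrays, a difference of 0.02 with overlap. The groups of 3 of the 7 were separate with MMTV-Cre higher (15.9% of probe sets at or above the limit), the largest difference being 0.13 (6.96 in both MMTV-Cre arrays, against 6.85 and 6.82 in wild-type arrays).

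Set beside each other, the replication-dependent members had a median difference of 0.08 and the variants of 0.06, and among the members above the limit for dim genes the medians were 0.14 (12 genes) and 0.04 (4 genes). The difference between the classes was not tested. Only the variants were extended through older symbols. Of the replication-dependent genes found that way, H2aw was tested and differed by 0.05, and the dim H4f16 differed by 0.42, both with overlap. The mean level of the variants, after subtracting each gene's own mean, stood at 0.08 and 0.07 in MMTV-Cre arrays and at −0.10 and −0.05 in wild-type arrays. These groups were separate with H2ax in the list. Without H2ax, a setting chosen after its values were seen, the 6 remaining variants stood at 0.10 and −0.04 in MMTV-Cre arrays and at −0.07 and 0.01 in wild-type arrays, which overlapped. Without wild-type replicate 1 the median of the variants was 0.05.

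Germ-line histones are known from testis and oocyte, and the members found by the rule were all dim. Of 3 further germ-line genes found by older symbols, H2ab1 (mean 3.32) and H2al2a (mean 3.05) reached the limit and differed by −0.04 and 0.04, with overlap. The 5 genes H1f6, H1f7, H1f8, H2ac1 and H2bc1 had means over the arrays between 1.26 and 2.76, the highest for the oocyte linker histone H1f8. H2ac1 reached 3.44 in wild-type replicate 2 and stood at 1.99 and 1.82 in MMTV-Cre arrays and at 1.55 in wild-type replicate 1. The pseudogene H2af-ps2 (Hist1h2al) stood at 2.98 and 3.25 in MMTV-Cre arrays and at 2.67 and 2.54 in wild-type arrays, separate groups with a log2 difference of 0.51 (0.15 to 0.87, limma adjusted p = 0.964), and 0.58 without wild-type replicate 1. Its mean of 2.86 lay just above the limit for dim genes, and that of H1f1, 2.81, just below it. The pseudogenes found by older symbols were dim. Macroh2a3 differed by 0.46, with MMTV-Cre higher without overlap (16.6% of all genes), and H2bu1-ps by 0.00 with overlap.

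Genes for the processing of histone mRNA had differences on both sides of 0. Of 21 listed genes 20 were tested, 10 had a difference above 0 (49% of genes tested) and 0 passed, with a median of −0.01 beside −0.00 over all genes tested. Without wild-type replicate 1 the median was 0.0028. Slbp, the stem-loop binding protein, stood at 6.24 and 6.01 in MMTV-Cre arrays and at 6.05 and 5.98 in wild-type arrays, a difference of 0.11 (−0.22 to 0.45). Npat, the activator of histone gene transcription in S phase, differed by 0.07 (−0.27 to 0.41). Lsm11, a part of the U7 particle that cuts histone pre-mRNA, was lower in both MMTV-Cre arrays, at 3.18 and 3.29 against 3.51 and 3.49 in wild-type arrays, a difference of −0.26 (−0.55 to 0.02). The cleavage factor genes Cstf1, Cpsf3 and Sympk differed by −0.24, −0.22 and −0.23, and Cpsf2 and Cstf2 by 0.17 and 0.16. Of the 20 tested genes, 3 were higher in MMTV-Cre arrays without overlap (16.7% of genes tested) and 4 lower (16.5%).

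Histone chaperone and exchange genes had a median difference of 0.03 over the 27 tested of 30 listed, with 15 above 0 and 0 passing. The median was also 0.03 without wild-type replicate 1 and turned to −0.012 without MMTV-Cre replicate 2. Asf1b, a chaperone of new H3 and H4 in dividing cells, differed by 0.23 (−0.05 to 0.51). Cenpa, the centromeric H3 variant, stood at 4.14 and 4.73 in MMTV-Cre arrays and at 5.07 and 4.72 in wild-type arrays, an overlap of groups with a difference of −0.46 (−1.07 to 0.16). Ipo4, which imports H3 and H4, differed by 0.21, and Cabin1, a partner of the H3.3 chaperone Hira, by −0.17.

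Genes of S phase had differences on both sides of 0. Of 24 listed genes 21 were tested, 8 had a difference above 0, 0 passed, and the median was −0.07. It was −0.09 without wild-type replicate 1 and 0.0099 without MMTV-Cre replicate 2. Fen1, a nuclease of lagging-strand synthesis, stood at 3.38 and 3.27 in MMTV-Cre arrays and at 3.61 and 3.67 in wild-type arrays, a difference of −0.32 (−0.61 to −0.03). Rrm2, a subunit of ribonucleotide reductase, and Mcm4, of the replicative helicase, differed by −0.28 and −0.24. Pola1, a subunit of DNA polymerase alpha, differed by 0.31. Tyms, which makes thymidylate, had the largest difference above 0, at 0.38 (−0.24 to 1.00), and was chosen after its values were seen. The list's mean level stood at 0.02 and −0.04 in MMTV-Cre arrays and at −0.04 and 0.07 in wild-type arrays, with overlap.

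The number of arrays limits the precision, with 95% intervals that reached 0.34 log2 units to either side of the difference in the median gene. For a single value, an exact permutation of 2 arrays against 2 gives no two-sided p below 0.333. Members with near-identical copies may share signal with them even where the annotation lists a single gene. Whether the labelling kit captured stem-loop mRNAs as fully as polyadenylated ones is not given in the sources used here, so levels were compared only between arrays.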

How the data were processed

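RNA of mammary epithelial cells from 2 MMTV-Cre and 2 wild-type samples was labelled from 50 ng of total RNA and hybridised to Affymetrix arrays, per the labels' protocols. Each probe set has a deposited log2 value, for which the authors used oligo and RMA, per the submitters' processing notes. RMA normalizes the probes of all arrays to a common distribution, which hides changes common to most genes. The labels call the samples biological replicates and do not say how many animals each holds. Of 41345 probe sets, 23521 had 1 gene symbol, 1814 several and 16010 none. A gene took its brightest probe set, and the 11668 genes whose mean reached 2.84 were tested with limma 3.58.1 in R 4.3.3 (lmFit, eBayes, two-sided, Benjamini-Hochberg adjustment over all genes tested, threshold 0.05). Shared probe sets came from a separate fit of the same model over all 41345 probe sets, without the filter and with p adjusted over all of them. The fit was also run on simulated data with the same spread for every gene. That setting differs from these data, so it gives no recovery rate for differences of the sizes reported here. Older symbols and biotypes were matched by Entrez identifier for 30 of 30 members.

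The members and lists were chosen with earlier results of these data known. Named were all variants, the 3 replication-dependent genes with the highest mean in each family, the members with the smallest p in each direction, and up to 4 genes of each further list by smallest p, with Slbp and Npat. The shared probe sets and dim members beyond these were added after their values were seen. So were the genes under older symbols, further genes named from the lists and the counts without each array.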

Additional observations from a re-analysis of the deposited data

How the results depend on the processing

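No histone gene passed the adjusted threshold under any alternative that was run: no filter, a stricter filter at a mean of 4, probe sets averaged by gene, arrays quantile-normalized or centred on their medians, eBayes with a trend or robust, the replicate block, and leaving out each array. At an unadjusted p under 0.05 the count was 2 of the 13 tested members and 504 of the 11668 genes tested. The 2 were H1f5 and the pseudogene H2af-ps2, whose mean of 2.86 lay just above the limit. Both were higher in MMTV-Cre, where 2.13% of genes tested had such a p and direction. With the replicate block the counts were 0 histone genes and 0 genes in all, so the block changed no call; no label says that the numbers pair the samples, and same-numbered arrays' deviations from their group means correlated at −0.04 across genes. Without 1 array each, between 0 and 13 genes passed, the 13 without wild-type replicate 2, and 0 histone genes; the lone array of a group is then taken to vary as the other arrays do. The median difference of replication-dependent genes was 0.05 with shared probe sets included, an alternative chosen after seeing the data, 0.16 under the stricter filter, and −0.01 to 0.14 without 1 array each; that of variants was 0.05 to 0.15. For 17 named genes under 198 combinations with alternatives, 182 kept the direction and 16 did not; the cause was not tested. Median centring turned H1f2 to 0.010, H1f3 to 0.016 and Macroh2a1 to 0.0058, and quantile normalization turned H1f3 to 0.031. Without 1 array each, differences that changed sign ran from −0.14 to 0.11 for H1f2, −0.33 to 0.31 for H1f3, −0.055 to 0.51 for H2ac10, −0.15 to 0.31 for H2ac21, −0.34 to 0.23 for H4c9, −0.012 to 0.22 for H2az2, −0.14 to 0.10 for Macroh2a1 and −0.32 to 0.20 for H2aj. H2bc3 ran from −0.26 to −0.10, H2af-ps2 from 0.37 to 0.65 and H2ac15 from 0.19 to 0.35.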
